A study of Mus musculus with 2 samples.

Results

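The genes described here are 10 members of the heat-shock response: Hspa1a, Hspa1b, Dnajb1, Bag3, Hsph1, Hspb1, Hsp90aa1, Hspa8, Hspe1 and Hspd1. They were found by symbol in the count tables, 10 of 10, among 32285 listed genes. The list was drawn up because Hspa1b, Hspb1 and Bag3 had low counts in macrophages of the IL4 library, so their values in macrophages describe the choice and support nothing. The samples were leukocytes sorted by FACS for the pan-leukocyte surface protein CD45 from subcutaneous tumours of B16F10, a mouse melanoma line. Control mice received untreated bone-marrow-derived macrophages (BMDMs), and mice of the IL4 group received BMDMs that had been exposed to interleukin-4, a type 2 cytokine that macrophages respond to. Both groups are labelled WT in genotype, and both therefore carried the tumour and a macrophage transfer. The per-sample treatment label separates the groups in this way, but the general protocol text names IL4-treated BMDMs for both. For mouse strain, age, sex, the number of mice per library and the time of transfer, nothing was given in the sources used here.

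Each group was 1 single-cell library (10x Genomics), so no test between the groups was possible. Every difference below is between 2 libraries. Counts are of unique molecular identifiers (UMIs, single captured RNA molecules), and levels are CPM, the counts of a gene scaled to the total UMIs of the same cells. Intervals are exact 95% intervals that cover counting error only, not the spread between mice. A gene was counted as lower or higher when the log2 ratio of CPM + 1, IL4 over control, passed a fold of 1.5. There were 8994 barcodes with 95499107 UMIs for the control (median 9157 per barcode) and 13873 barcodes with 133151428 UMIs for IL4 (median 8213). After filtering, 8937 and 13762 barcodes remained, and 23 barcode sequences occurred in both libraries. Ptprc, which encodes CD45, had a UMI in 89.0% of the kept control barcodes and 89.9% of the kept IL4 barcodes.

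Heat-shock proteins are chaperones that bind unfolded or unassembled proteins and keep them from clumping. Cells make some of them all the time, such as the HSP70 protein of Hspa8, and switch on others under heat, oxidants or other protein damage, when heat-shock factor 1 (HSF1) binds repeats of the short unit GAA and its complement TTC in their promoters. An HSP70 works in a cycle: a J-domain protein such as that of Dnajb1 delivers the client and starts ATP hydrolysis, and an exchange factor such as that of Bag3 or Hsph1 releases it. In leukocytes taken from tissue, these genes are also known to respond to the handling of the cells.

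The stress-inducible HSP70 genes Hspa1a and Hspa1b lie beside each other on chromosome 17, on the minus strand, as genes of 1 exon (GRCm38, 17:34969190-34972156 and 17:34956436-34959238). Their coding sequences agree at 1915 of 1926 positions (99.43%), whereas the last 300 bases of their transcripts align with 50.15% identity. Reads from the coding part can hardly be assigned to either gene, and which end of the transcript was read was not given in the sources used here; both genes were therefore also summed. Hspa1a overlaps Gm20481, which is annotated on the opposite strand and also listed in the count tables. The 250 bases before the start site are shown for both genes because they differ at only 3 positions, and because each holds 1 heat-shock unit pair GAANNTTC, in capitals, that begins 104 bases before the start site (RefSeq, GRCm38.p6, chr17:34972157-34972406 and chr17:34959239-34959488, minus strand).
Hspa1a: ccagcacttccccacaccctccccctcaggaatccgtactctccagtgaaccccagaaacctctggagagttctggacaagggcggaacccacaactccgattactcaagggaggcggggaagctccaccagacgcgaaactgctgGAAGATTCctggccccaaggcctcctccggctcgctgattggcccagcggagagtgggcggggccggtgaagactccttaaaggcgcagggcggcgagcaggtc
Hspa1b: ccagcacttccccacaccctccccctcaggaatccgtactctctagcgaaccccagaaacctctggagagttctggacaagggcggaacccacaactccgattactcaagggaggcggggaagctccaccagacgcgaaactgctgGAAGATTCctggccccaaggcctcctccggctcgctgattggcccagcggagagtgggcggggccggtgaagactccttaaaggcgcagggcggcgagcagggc

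Hspb1, a small heat-shock protein gene on chromosome 5 (GRCm38, 5:135887919-135889563, plus strand), is shown because it had the lowest log2 ratio of the 10 genes in macrophages and carries the same unit pair at 2 places, 117 and 97 bases before the start (RefSeq, GRCm38.p6, chr5:135887669-135887918, plus strand). Hsph1 and the divergent gene pair Hspe1 and Hspd1 are shown as stretches of 30 bases around their repeats. The Hsph1 stretch holds the pair TTCNNGAA (chr5:149636351-149636380, minus strand). Hspe1 and Hspd1 are read away from each other on chromosome 1 (55088132-55091307, plus strand, and 55077835-55088243, minus strand), and 1 run of 18 bases with 4 alternating units lies ahead of Hspe1 and of a start site of Hspd1 (chr1:55088053-55088082, shown on the plus strand).
Hspb1: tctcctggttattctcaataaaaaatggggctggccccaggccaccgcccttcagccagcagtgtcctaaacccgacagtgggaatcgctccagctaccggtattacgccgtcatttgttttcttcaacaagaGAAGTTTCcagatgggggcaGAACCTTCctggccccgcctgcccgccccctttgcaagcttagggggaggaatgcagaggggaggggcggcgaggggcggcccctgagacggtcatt
Hsph1: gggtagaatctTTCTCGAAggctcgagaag
Hspe1: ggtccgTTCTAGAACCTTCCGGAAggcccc

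Promoter entries were matched for 8 of the 10 genes; Hsp90aa1 and Hspa8 are named only. Both pair motifs were searched on the strand of the gene; each reads the same on the other strand, so both strands were covered, and the pairs can overlap. Of all 32817 promoter windows in the RefSeq table, 6.69% held GAANNTTC, 7.16% held TTCNNGAA and 12.8% held either one. Neither pair was found in these windows of Bag3 (7:128523616-128546981, plus strand) and Dnajb1 (8:83608193-83612653, plus strand). A match of letters is a description of the window and shows no binding.

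Cells were sorted into classes by summed UMIs of marker genes. Macrophage-like cells (markers such as C1qa, C1qb, C1qc, Ms4a7 and Pf4, all 5 of which were among the 10 genes with the highest fold in the class) numbered 2096 (control) and 3189 (IL4), with 20307728 and 26727122 UMIs. In these cells the 10 genes summed to 7715 CPM for the control and 5303 CPM for IL4. Lower by the 1.5-fold rule were 7 of the 10, and 0 were higher. Of all 13648 genes with at least 20 UMIs in these cells, 2.9% were lower and 3.05% higher; since the genes were chosen on this contrast, nothing is read from the difference between these shares. The median log2 ratio was -0.81 over the 10 genes and -0.07 over all genes tested.

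Among the HSP70 genes, the inducible pair was lower and the constitutive gene was level. Hspa1a stood at 1648 CPM (interval 1630 to 1666) in control macrophage-like cells and at 915.1 CPM (903.6 to 926.6) in those of the IL4 library, a control level 1.8-fold that of IL4. Hspa1b stood at 1044 CPM (1030 to 1058) against 520 CPM (511.4 to 528.8), a control level 2.01-fold that of IL4. With the UMIs of both genes summed, the log2 ratio was -0.91. Hspa8, which encodes the HSP70 protein that cells make without stress (9:40800984-40810087, plus strand), stood at 2436 CPM against 2391 CPM, a log2 ratio of -0.03. The ratio of the 2 libraries was thus near 1 for the constitutive HSP70 gene and near 2 for its inducible relatives in the same cells.

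The partners of HSP70 differed from each other. Dnajb1, whose J-domain protein starts the HSP70 cycle, had 163.1 CPM against 118.2 CPM (log2 ratio -0.46), which is within the 1.5-fold limits. The exchange factors were further apart between the libraries. Bag3, which also links HSP70 clients to autophagy, had 158.8 CPM (153.4 to 164.4) against 72.44 CPM (69.24 to 75.74), a log2 ratio of -1.12. Hsph1, an HSP110 exchange factor (5:149614287-149636376, minus strand), had 300.6 CPM against 116.1 CPM, a log2 ratio of -1.36. The counting intervals of the libraries did not overlap for either exchange factor, nor for Dnajb1. This also held for Hspa8 (2415 to 2458 against 2373 to 2410 CPM), whose log2 ratio was -0.03. The share of all genes with such intervals was not computed, so nothing is read from the lack of overlap.

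Hspb1, whose product holds unfolded proteins without using ATP, had 88.09 CPM (84.06 to 92.27) against 30.49 CPM (28.44 to 32.66), a log2 ratio of -1.50. Its UMIs came from few cells. In the control library 300 of the 2096 macrophage-like cells had an Hspb1 UMI, and 28 cells held 50% of the 1789 UMIs. In the IL4 library 197 of 3189 cells had one, and 20 cells held 50% of the 815 UMIs. The counting interval does not cover this unevenness. Without barcodes that held a UMI of a melanoma marker gene, a comparison chosen after seeing the data, the Hspb1 log2 ratio was -0.96. Bag3 was spread more widely, with 50% of its UMIs in 100 control and 249 IL4 cells.

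Hsp90aa1, the stress-inducible cytosolic HSP90 gene (12:110690605-110702728, minus strand), had 1283 CPM against 757.8 CPM (log2 ratio -0.76). Of the members past the 1.5-fold limit it was the nearest to it. The nearest of those that did not reach it was Hspe1, the mitochondrial HSP10 gene, with 395.3 against 266.2 CPM (-0.57). Its partner Hspd1, the mitochondrial HSP60 gene, had 198.1 against 114.8 CPM (-0.78). The annotated ends of Hspe1 and Hspd1 overlap on opposite strands, and nothing on strand in the counting was given in the sources used here.

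**Figure D1:**
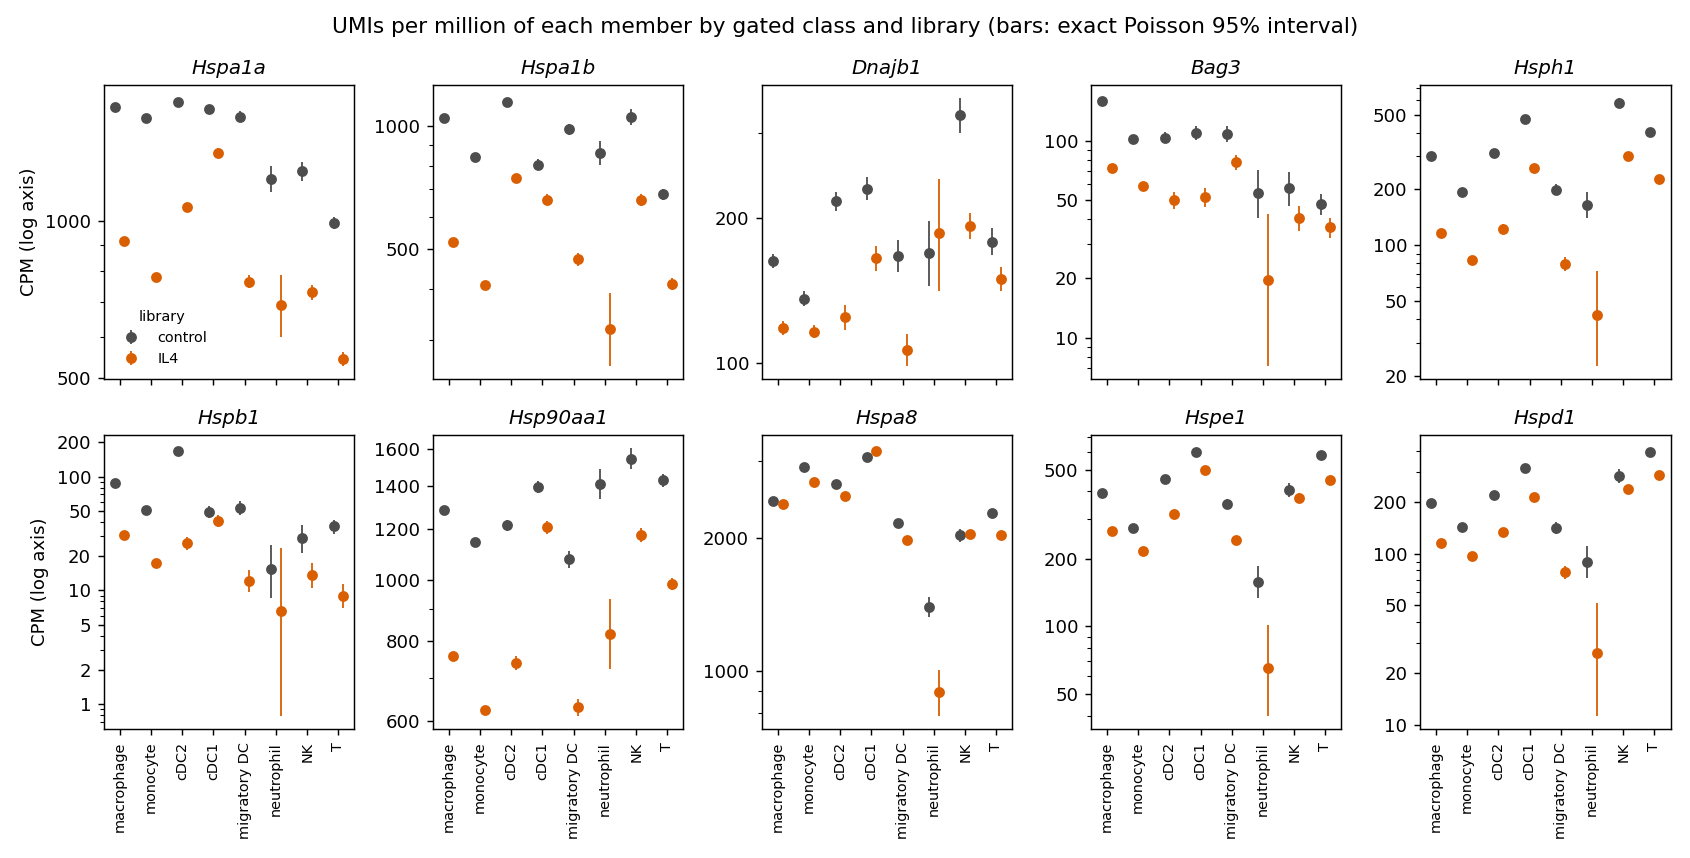
CPM of each of the 10 genes (vertical log axis) in 8 classes of cells, with the control library in grey and the IL4 library in orange; bars are exact Poisson 95% intervals and cover counting error only. In macrophages Hspa1a stood at 1648 and 915.1 CPM, while Hspa8 stood at 2436 and 2391 CPM.

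The same genes were then read in the other 7 classes that had at least 100 cells in each library. A level 1.5-fold higher in the IL4 library was found for 0 of the 10 genes in each of the 8 classes. In classical monocyte-like cells (2277 control and 3822 IL4 cells) 6 of 10 were lower, beside 1.59% of all genes lower and 2.04% higher. In cells like conventional dendritic cells (DCs) of type 2 (562 and 705 cells) 8 of 10 were lower, beside 4.9% of all genes lower and 2.67% higher. In cells like mature migratory DCs (293 and 578 cells) 7 of 10 were lower, beside 6.4% lower and 4.6% higher. Lymphocytes showed fewer: 5 of 10 in NK-like cells (188 and 519 cells), beside 7.33% lower and 5.7% higher, and 4 of 10 in T-like cells (311 and 537 cells), beside 4.04% lower and 3.44% higher. Lowest was the count in cells like conventional DCs of type 1 (246 and 335 cells), where 2 of 10 were lower, beside 5.81% of all genes lower and 3.12% higher. The IL4 library held only 112 neutrophil-like cells, with 306259 UMIs, against 254 in the control. There, 8 of the 9 members with at least 20 UMIs were lower, beside 23.0% of all genes lower and 10.9% higher, so a large share of the whole table was lower in that class. Over all kept barcodes, which include the macrophage-like cells used for the choice, 6 of 10 were lower, beside 0.983% of all genes lower and 1.01% higher.

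Counts of classes, here and below, include the macrophage-like cells on which the genes were chosen. Such counts were not made over all genes, so nothing is read from them. Hsph1 was lower in 8 of 8 classes, with log2 ratios from -1.93 in neutrophil-like to -0.83 in T-like cells. Its control level was highest in NK-like cells, at 576.2 CPM against 300.3 CPM in the IL4 library. Hspa1a and Hspa1b were each lower in 7 of 8 classes. Type 1 DC-like cells were the exception: Hspa1a had 1632 CPM there against 1347 CPM, a log2 ratio of -0.28. This IL4 level was the highest of the 8 classes, and the lowest IL4 level of Hspa1a was 543.9 CPM in T-like cells. In the control the Hspa1a level spanned 1.7-fold between classes, and in the IL4 library 2.48-fold.

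Bag3 was lower in 5 of 8 classes, which include the macrophage-like cells on which it was chosen. Its control level was highest in macrophage-like cells, at 158.8 CPM, which is part of that choice, and lowest in T-like cells, at 47.7 CPM. The classes in which it was not 1.5-fold lower were migratory DC-like cells (107.9 against 77.64 CPM), NK-like cells (57.28 against 40.37 CPM) and T-like cells (47.7 against 36.26 CPM). In type 1 DC-like cells, where the HSP70 pair was within the limits, Bag3 had 109.8 against 51.61 CPM (log2 ratio -1.07). Hsph1 was the only other member that was lower there, with 476.5 against 260.5 CPM.

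Hspb1 was past the limit in 7 of 8 classes, counting neutrophil-like cells with under 20 UMIs and the macrophage-like cells of the choice. In the control Hspb1 spanned 10.9-fold between classes, from 15.33 CPM in neutrophil-like to 167.8 CPM in type 2 DC-like cells. In type 2 DC-like cells it had 1420 control UMIs and 232 IL4 UMIs (26.02 CPM), a log2 ratio of -2.64. As many as 50% of those 1420 UMIs sat in 7 of 562 cells, and the highest cell held 16.5% of them. Without the UMIs of the highest cell of each library the levels were 140.2 and 21.87 CPM. The neutrophil-like value rested on 15 and 2 UMIs, and its fold of control over IL4 had an interval from 0.546 to 21.2. In type 1 DC-like cells Hspb1 had 48.66 against 41.06 CPM, but 1 cell held 39.1% of the 261 UMIs in the IL4 library.

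Hsp90aa1 was lower in 5 classes; the others were type 1 DC-like, NK-like and T-like cells, with log2 ratios of -0.21, -0.40 and -0.54. Dnajb1 was lower in 3 classes (type 2 DC-like, migratory DC-like and NK-like) and stood at 169.6 against 186.1 CPM in neutrophil-like cells, on 166 and 57 UMIs. Its control level was highest in NK-like cells, at 326.5 CPM. Hspd1 was lower in 4 classes and Hspe1 in neutrophil-like cells only, on 155 and 20 UMIs. Hspa8 was also lower in neutrophil-like cells only, with 1397 against 891.4 CPM; in the other 7 classes its log2 ratio lay between -0.17 and 0.05.

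**Figure D2:**
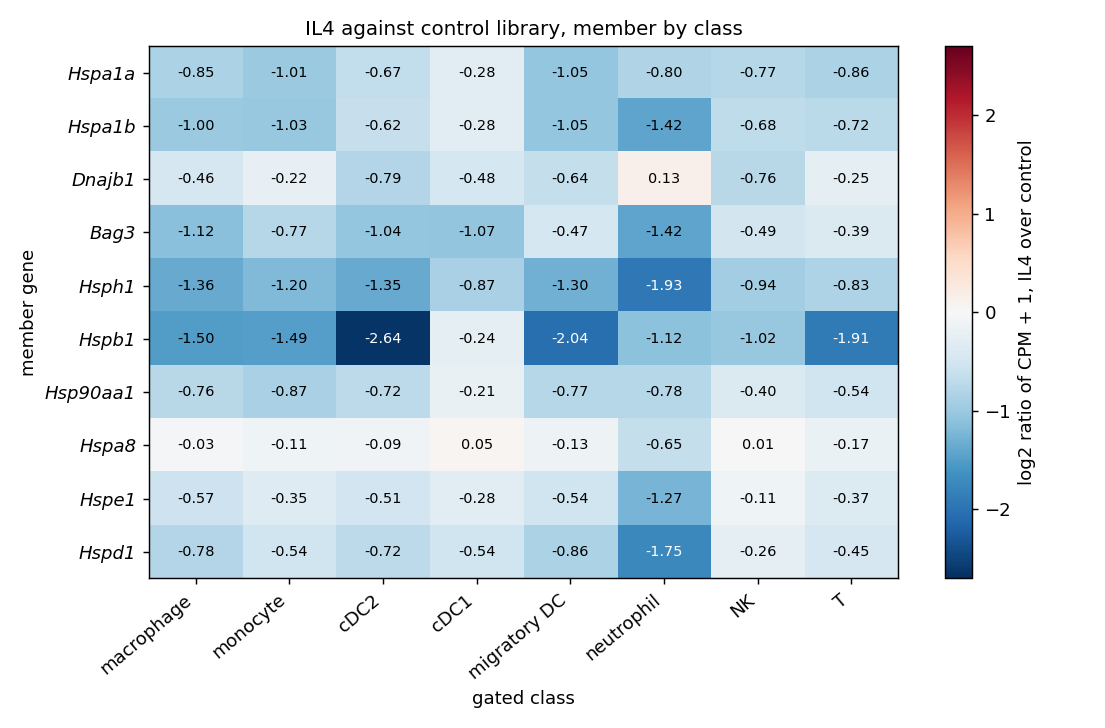
Log2 ratio of CPM + 1, IL4 over control, for each of the 10 genes (rows) in 8 classes (columns); blue is lower in the IL4 library and the value is written in each cell. Hsph1 is at or under -0.83 in every class, Hspa8 lies between -0.17 and 0.05 outside neutrophil-like cells, and the column of type 1 DC-like cells (cDC1) is paler than its neighbours.

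The genes did not keep 1 ratio to each other across classes. In the control library there were 0.0127 Hspb1 UMIs for each Hspa1a UMI in neutrophil-like cells and 0.0995 in type 2 DC-like cells. For Hsph1 the same ratio ran from 0.123 in monocyte-like to 0.464 in NK-like cells. No class here is known to lack these genes, so no background share could be read from one. Plasmacytoid DC-like cells (36 and 109) and B-like cells (64 and 28) were below the minimum of 100 cells. In the plasmacytoid cells 8 of 10 genes were past the limit, beside 12.1% of all genes, and in the B-like cells Hspb1 had 67 and 54 UMIs, which is 157.3 and 340.5 CPM.

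Other measures also differed between the libraries in macrophage-like cells. The median depth was 8597 UMIs against 7397, and the median mitochondrial share was 1.58% and 1.26%. The 8 melanoma marker genes summed to 230 and 214 CPM. The list of 17 immediate-early genes, which answer within minutes to stimulation and to tissue dissociation, summed to 24650 CPM against 30610 CPM. In monocyte-like cells that list summed to 27620 CPM in each library. The part of these measures in the result was not tested. The splits that follow are descriptions, and none was made by immediate-early level.

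Split by depth, 9 of the 10 genes, all but Hspa8, had a log2 ratio below 0 in each of 4 ranges of UMIs per macrophage-like cell. The same count was not made over all genes, and the genes were chosen on these cells, so nothing is read from it. Hspa1b ran from -1.66 in cells under 5000 UMIs to -0.62 in cells of 20000 or more. From the lowest range to the highest, Hsph1 had -1.43, -1.38, -1.48 and -0.91. Hspa8 lay between -0.13 and 0.11. In cells with up to 1% mitochondrial UMIs (361 and 1031 cells) Hspa1a had 1680 against 950 CPM, and in those with 2 to 5% (598 and 574 cells) it had 1810 against 1020 CPM. In the few cells with 5 to 10% (56 and 49) it had 3420 against 1080 CPM. Its log2 ratio was -0.82, -0.85 and -0.83 in the ranges up to 5% and -1.66 in the last; that of Hsph1 was -1.49, -1.23, -1.57 and -2.58. Hspb1 had -2.16 in cells with up to 1% and -1.26 in those with 2 to 5%, and 17 against 0 UMIs in the last range.

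The macrophage-like cells of the libraries also fell into shared clusters in different shares. In a Leiden clustering computed without the 10 genes and the stress lists, the largest cluster in the control (583 cells) was led by Arg1, Cxcl3 and Nos2, and the next (390 cells) by Lyve1, Gas6 and Cbr2. Among IL4 cells the largest (640 cells) was led by Ms4a7, Nr1h3 and Cd300e, and the Lyve1 cluster held 200 cells. The Arg1 cluster held 634 IL4 cells, and the Ms4a7 cluster 211 control cells. A cluster led by Gm15726, Lsmem1 and Gm31522 held 182 control and 634 IL4 cells. There the log2 ratio was -1.725 for Hspa1a and -2.16 for Hspa1b, the lowest of the compared clusters for both. Within the 10 clusters that were compared, Hsph1 was 1.5-fold lower in 10 of 10. The log2 ratio of Hspa1a, Hspa1b, Hsp90aa1, Hspe1 and Hspd1 was below 0 in 10 of 10, that of Bag3 and Hspb1 in 8 of 10. Such counts were not made over all genes, and the genes were chosen on these cells, so the counts are a description only. In the cluster led by Spp1, Ccl24 and Lpl (110 and 74 cells) Bag3 had 102 against 132 CPM, and Hspb1 had 28.4 against 29.9 CPM. Hspa1a had its smallest difference in the Lyve1 cluster, with 1490 against 1230 CPM. With each cluster of the control weighted by its share of the IL4 UMIs, the log2 ratios were -0.94 for Hspa1a, -1.06 for Hspa1b, -1.12 for Hspb1, -1.19 for Bag3 and -1.35 for Hsph1.

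**Figure D3:**
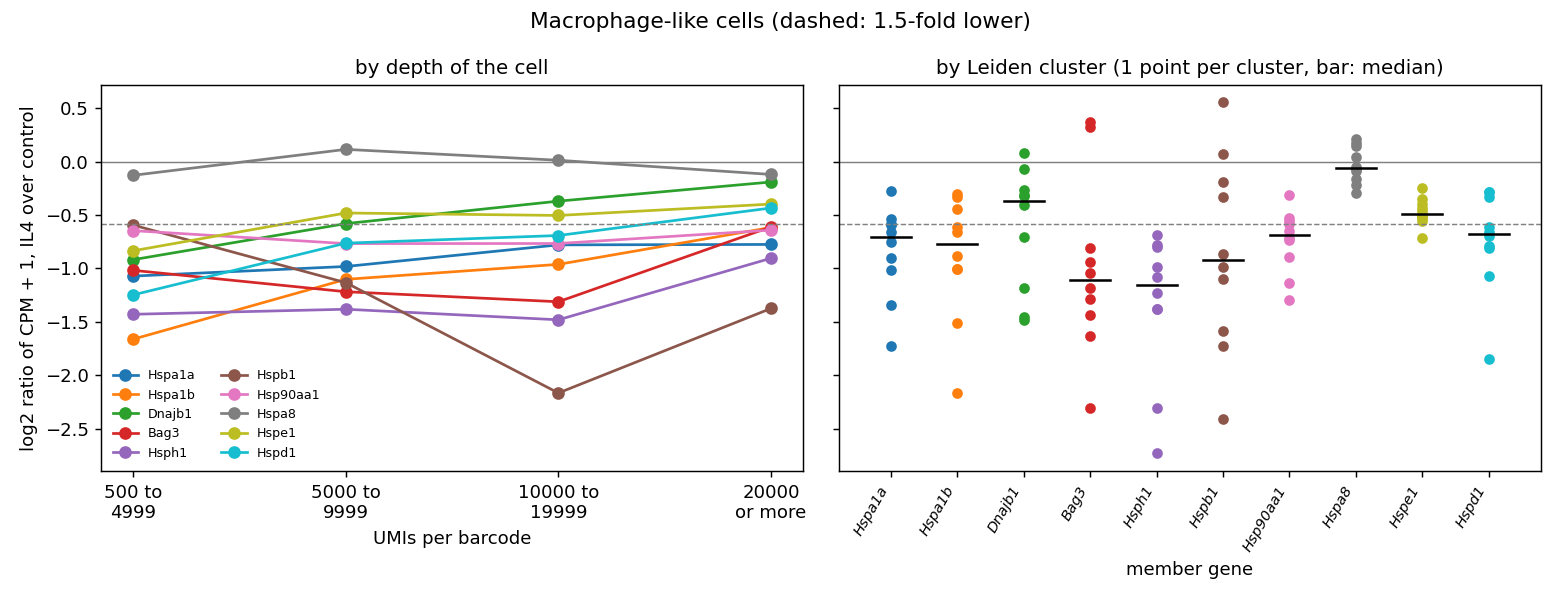
Log2 ratio of CPM + 1, IL4 over control, in macrophage-like cells: on the left by range of UMIs per barcode, with 1 line per gene, and on the right by Leiden cluster, with 1 point per cluster and a bar at the median. Hspa8 stays around 0 while the other lines lie below it, and all 10 Hsph1 points lie under the dashed line of 1.5-fold lower.

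Cells of both sexes were present in both libraries, in unequal shares. Xist RNA without Y-linked RNA was found in 52.0% of the control and 75.9% of the IL4 macrophage-like cells, and Y-linked RNA without Xist in 26.0% and 8.22%. Which of these cells were transferred cannot be told from the labels. Among Xist-only macrophage-like cells (1090 and 2422) 9 of the 10 genes were lower, all but Hspa8, beside 5.69% of all genes. Among Y-only cells (546 and 262) 3 of the 10 were lower, beside 10.3% of all genes. These were Hspb1 (48.2 against 22.2 CPM), Bag3 (146 against 68.6 CPM) and Hsph1 (276 against 145 CPM). Hspa1a had 1450 against 1030 CPM in Y-only cells, a log2 ratio of -0.50, and -0.94 in Xist-only cells. Hspd1 had -0.26 in Y-only and -0.93 in Xist-only cells. The difference between these subsets was not tested, as each is 1 sum per library. Both subsets are part of the macrophage-like cells on which the genes were chosen. Nothing is therefore read from the counts of lower genes beside the shares of all genes.

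Per cell, the inducible HSP70 pair was unevenly spread. Hspa1a and Hspa1b together had a median of 18.2 UMIs per 10000 UMIs in control macrophage-like cells, with a 10th percentile of 1.54 and a 90th of 78.2. In the IL4 library the median was 6.39, the 10th percentile 0 and the 90th 39.3. The distributions overlapped widely, and the IL4 curve lay below the control curve at each percentile from the 6th to the 99th; at the 5th and lower both were at 0. The 10% of cells with the highest levels held 42.1% of the summed per-cell level of the control and 49.2% of that of IL4. Hspa8 had a 10th percentile of 7.34 and 6.41 and a 90th of 42.9 and 43.5.

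**Figure D4:**
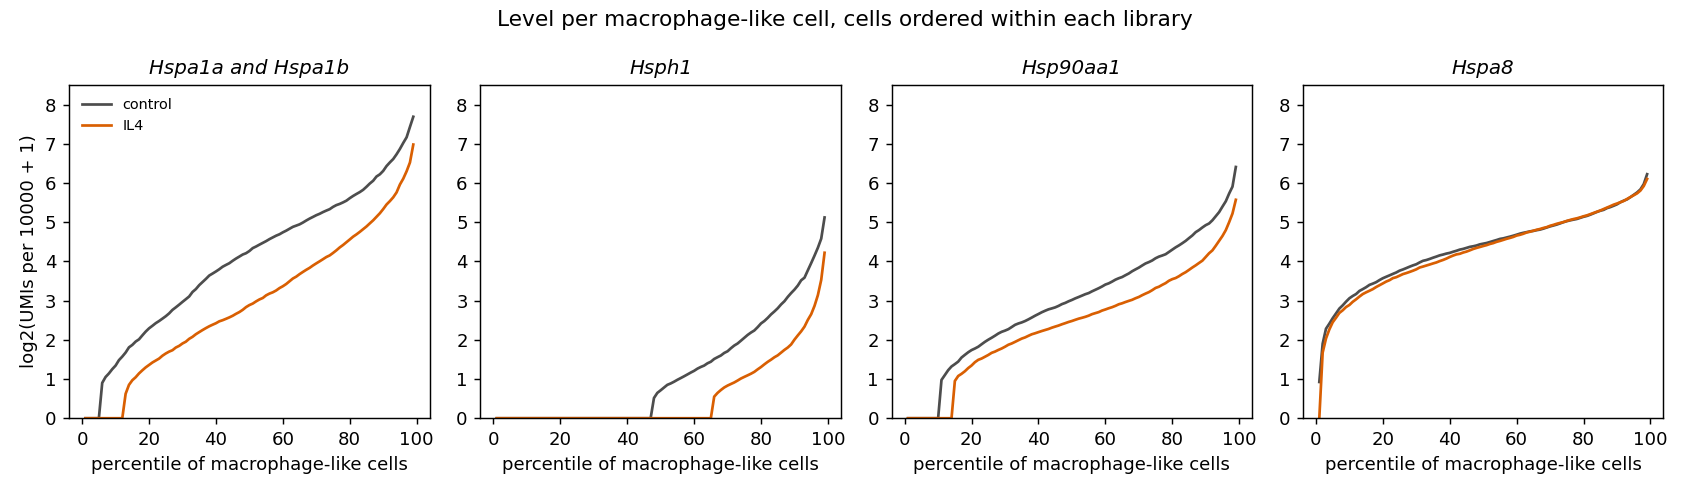
UMIs per 10000 UMIs of each macrophage-like cell, plotted as log2(value + 1), against the percentile of the cell within its library, for Hspa1a and Hspa1b together, Hsph1, Hsp90aa1 and Hspa8. Where it is above 0, the control curve lies above the IL4 curve for the first 3. Medians of the HSP70 pair are 18.2 (control) and 6.39 (IL4), and the curves of Hspa8 nearly coincide.

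With each cell thinned to 1000 UMIs, at a cost of 48 and 60 macrophage-like cells with fewer, an Hspa1a UMI was found in 61.5% (exact binomial interval 59.4 to 63.6%) of control and 42.2% (40.5 to 44.0%) of IL4 cells. Without thinning the shares were 90.7% and 80.7%. Hsph1 was found in 19.0% and 8.05% of thinned cells, Bag3 in 11.3% and 6.23%, and Hspb1 in 4.49% and 2.01%. Hspa8 was found in 83.0% and 82.9%. In T-like cells Bag3 had thinned shares of 3.23% and 3.35%, and in NK-like cells of 4.26% and 5.2%, each pair with overlapping intervals; as its CPM was lower there in the IL4 library, no order was read from these shares.

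Between macrophage-like cells of the same library, the levels of the members were compared in pairs. Over cells thinned to 5000 UMIs (1569 control and 2240 IL4 cells), Pearson's r was above 0 for 45 of 45 pairs of the 10 genes in both libraries. Many were small: the median r was 0.27 (control) and 0.15 (IL4), and the lowest was 0.05 and 0.0077. These points share a library and a depth, and the values are given as a description. Pairs of other genes were not computed, so nothing particular to these genes is read from the signs. The highest r was that of Hspa1a with Hspa1b, 0.68 (control) and 0.64 (IL4), a pair whose reads may be split between copies. Hspa1a with Hsp90aa1 had 0.56 and 0.49, and Hspa1b with Hsph1 0.51 and 0.40. Bag3 with Hspa1b had 0.33 and 0.14. Hspb1 with Hspa8 had 0.05 and 0.06. An r of at least 0.3 was reached by 17 control pairs and 9 IL4 pairs; the counts were lower among IL4 cells.

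Other genes of protein quality control were mostly within the 1.5-fold limits. Of 9 lists of chaperones, cochaperones and related genes with 101 genes in all, 95 had at least 20 UMIs in macrophage-like cells; 3 were lower, 0 were higher, and their median log2 ratio was -0.14. Over all genes tested these shares were 2.9% lower and 3.05% higher. The 3 were Hspa4l, an HSP110 relative of Hsph1 (50.9 against 30.1 CPM), Fkbp5, an HSP90 cochaperone that glucocorticoids induce (40.2 against 25.7 CPM), and Hsf5, whose 18 against 2 UMIs give an IL4-over-control fold of 0.0844 with a counting interval from 0.0095 to 0.353. Hspa4l was 1.5-fold lower in 5 of 8 classes, with log2 ratios from -0.82 to 0.40. Fkbp5 was lower in 1 of 8, and Hsf5 had at least 20 UMIs in 1 class only. Such counts were not made over all genes, so nothing is read from them.

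Of 14 genes of HSP90 and its cochaperones, 1 was lower and the median was -0.31; Stip1, which joins HSP70 to HSP90, had 66.7 against 50.1 CPM. Of 16 J-domain genes 0 were lower, and they went both ways: Dnaja1 had 519 against 396 CPM and Dnaja2 had 135 against 168 CPM. Of 14 genes of the cytosolic chaperonin TRiC and its partner prefoldin 0 were lower, with a median of -0.24, and Cct3 had 92.4 against 67.2 CPM. Among 12 chaperones of the endoplasmic reticulum 0 were lower, and Pdia4, a disulfide isomerase, came nearest to the lower limit with 121 against 80.7 CPM (log2 ratio -0.58). Among 8 mitochondrial chaperones and proteases, the compartment of Hspe1 and Hspd1, 0 were lower, and Trap1, the mitochondrial HSP90, had 19.1 against 13.3 CPM. Of 8 other genes on the small heat-shock list 4 had at least 20 UMIs, and 0 were lower or higher. Hspb11 had 29.3 against 26.8 CPM, and Cryab, a relative of Hspb1, had 3.2 against 2.96 CPM. The other way went Hspb6, with 12 against 25 UMIs, and Hspb9, with 6 against 15 UMIs. The median log2 ratio of the list was 0.09. Ier5, an immediate-early gene whose product acts on HSF1, had 665 against 896 CPM, and Sqstm1, an autophagy receptor, 470 against 604 CPM.

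Of the 17 immediate-early genes 3 were higher in the IL4 library, beside 3.05% of all genes, and the list's median log2 ratio was 0.32. The 3 were Ier2 (268 against 460 CPM), Socs3, an inhibitor of cytokine signalling (341 against 572 CPM), and Egr1, a zinc-finger transcription factor (287 against 448 CPM). Ier2 and Egr1 were each higher in 2 of 8 classes and Socs3 in 1, which was not counted over all genes. Of 9 measured oxidative-stress and metallothionein genes 1 was lower, beside 2.9% of all genes. It was the metal-binding Mt2, with 61.4 against 35.6 CPM, and Mt1 had 569 against 403 CPM.

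**Figure D5:**
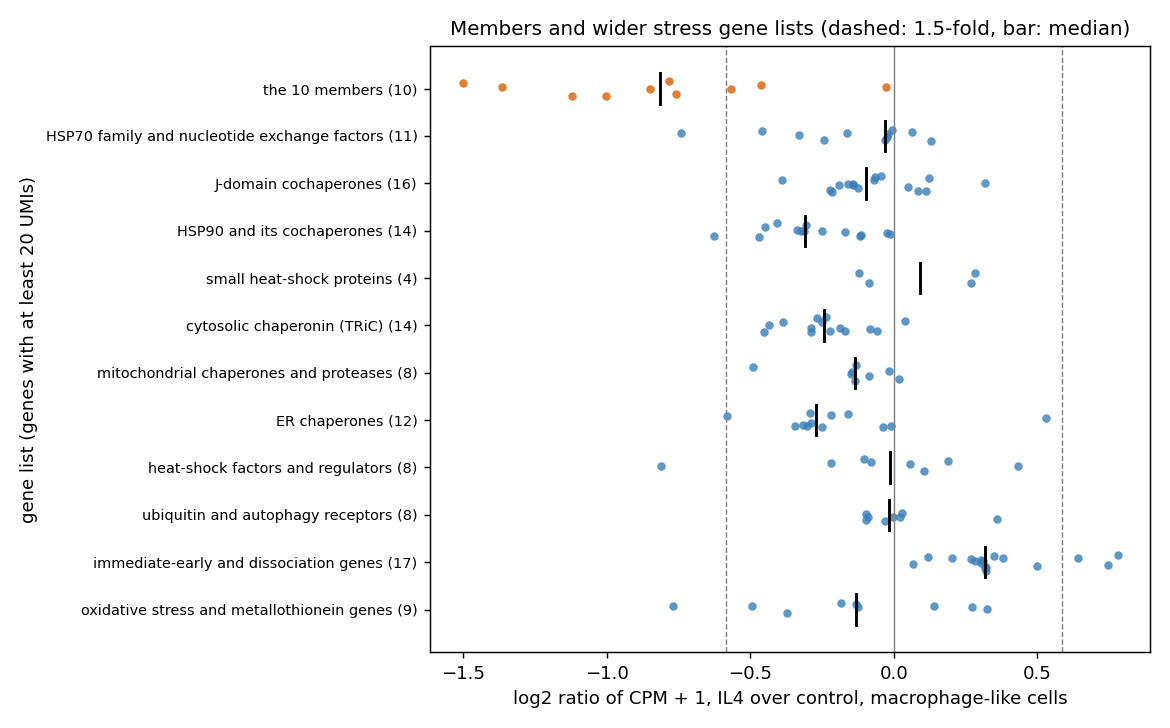
Log2 ratio of CPM + 1, IL4 over control, in macrophage-like cells for the 10 genes (orange) and for the genes of 11 other lists with at least 20 UMIs (blue); bars are medians and dashed lines mark a fold of 1.5. The 10 genes have a median of -0.81, the immediate-early list of 0.32, and the chaperone lists lie mostly between the dashed lines.

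Neutrophil-like cells differed from the other classes in these lists as well. Lower there were 8 of 12 measured genes of HSP90 and its cochaperones, 7 of 12 of TRiC and prefoldin and 6 of 11 of the endoplasmic reticulum, in a class where 23.0% of all genes were lower. In monocyte-like cells 0 genes of these 3 lists were lower.

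Over the 16 sums of 8 classes and 2 libraries, the genes whose log2 level was most like the mean of the 10 members were sought among 7801 other genes. The most alike were Adh5 (Pearson's r 0.84), Cetn3, Psmg3, Smad2 (each 0.82) and Cars2 (0.81), followed by Mpp6, Dctn5, Araf, Tbcd and Sdhd. All 10 had their lowest level in the IL4 neutrophil sum, the smallest of the sums. Adh5 ran from 6.53 CPM there to 63.3 CPM in control type 1 DC-like cells. Each of these 10 genes was 1.5-fold lower in 1 or 2 of 8 classes. Hsph1 was the member closest to the mean of all 10 (0.91), and Dnajb1 the farthest (0.53).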

How the data were processed

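The files are raw UMI counts per gene and barcode, deposited by the authors as 1 filtered matrix per library; per the submitters' processing notes they used Cell Ranger 7.2.0 and mm10. On introns and strand in the counting, nothing was given in the sources used here. These 10 genes and all lists were chosen with earlier results of these data known. Kept were barcodes of at least 500 UMIs and 250 genes with up to 10% mitochondrial UMIs (99.4% and 99.2%). A class needed its summed marker UMIs per 10000 UMIs at or over a threshold (30 for macrophages) and at least 3 markers with a UMI; the thresholds were set after seeing the data. Of kept barcodes, 509 control and 777 IL4 barcodes lay up to 20% below the macrophage threshold. Barcodes in no gate made up 23.0% and 20.5%, those in several gates 6.22% and 7.27%. A gate for non-classical monocytes was not used. No doublet caller was run; the 5% deepest barcodes were left out as an alternative.

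UMIs were summed per class and library and divided by the class total (CPM). Intervals are exact Poisson for levels, exact conditional for folds and exact binomial (Clopper-Pearson) for shares, at 95%. A gene was called at a fold of 1.5 with a pseudocount of 1 CPM and at least 20 UMIs over both libraries. Named beside the 10 genes are, by rule, up to 4 genes per list with the largest absolute log2 ratio in macrophage-like cells, and the 10 genes most alike in level. Leiden clusters (scanpy 1.11.5, 2000 variable genes, 30 components, 15 neighbours, resolution 1) used both libraries without integration. Scaling by edgeR 4.0.16 (TMM) and by DESeq2 1.42.0 size factors were alternatives; neither tool was used for a test, and DESeq2 and edgeR saw only the summed counts. The counting scripts were tested on simulated data. Positions are from GENCODE vM21 (GRCm38, the same assembly as mm10) and sequences from RefSeq (GRCm38.p6).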

Additional observations from a re-analysis of the deposited data

How the results depend on the processing

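The 10 genes gave 48 values by class that were 1.5-fold lower (Hspb1 in neutrophil-like cells included), and these were recomputed under 15 to 18 settings each of scaling, pseudocount, barcode filter, depth, gate, clusters and barcode subset. Of 810 recomputed values 758 were still 1.5-fold lower and 1 was above 0: Hspb1 in NK-like cells with Y-only barcodes (log2 ratio 0.80, 43 and 45 cells). The subset of Y-only barcodes lowered the count of lower genes to 3 in macrophage-like, 5 in type 2 DC-like and 4 in migratory DC-like cells. In type 1 DC-like cells the count rose from 2 to 4 with Leiden clusters, with the stricter gate and with Xist-only barcodes, and to 5 without barcodes with a melanoma marker. NK-like cells gave 3 with Xist-only barcodes. Neutrophil-like cells gave 5 with Leiden clusters and 3 without barcodes with a melanoma marker, against 8. Of the 9 chaperone lists in macrophage-like cells, 1 gene was lower with a pseudocount of 5, with Leiden clusters and without barcodes with a melanoma marker, against 3. The count of higher genes, 0 as reported, was 1 with each cell weighted the same, with Y-only barcodes and with barcodes of 5000 to 10000 UMIs, and 2 with a pseudocount of 0.1. The cause was not tested. Barcodes of 5000 to 10000 UMIs, those of low mitochondrial share and those without a melanoma marker were chosen after seeing the data. Y-only neutrophil-like cells (81 and 15) were not compared. Neither were barcodes of 5000 to 10000 UMIs in neutrophil-like (16 and 10) and type 1 DC-like cells (10 and 15). No paired analysis was possible because each group is 1 library. Low counts limit the values of neutrophil-like cells, the number of cells limits B-like and plasmacytoid DC-like cells, and Hspb1 is limited by the few cells that held its UMIs.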
